A study of Mus musculus with 3 samples.

Results

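Actg1 encodes γ-actin, one of the cytoplasmic actins that build the cytoskeleton of fibroblasts, and its RNA is among the most abundant in these cells. Processed pseudogenes are copies of a messenger RNA (mRNA) that were reverse transcribed and inserted elsewhere in the genome, so they carry the exons joined together, lack introns and usually lack a promoter of their own. A sequenced fragment that lies in a stretch shared by a gene and its copy fits both places equally well, and its count depends on the rule of the aligner and of the counting program. The 9 members were Actg1, 7 of the pseudogenes that resemble Actg1 or Actb, and Lrrc58, which encodes a leucine-rich repeat protein and has an Actb copy in its last exon. They were chosen by symbol with earlier results of these data known, so their counts are given as a description. Counts were analysed for 8 of the 9, among 46603 genes in the tables. Gm16385 is not among these genes and was described by its sequence alone.

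The data were RNA-Seq counts of 3 libraries of KO-NLS-actin cells, made from polyadenylated RNA. These are mouse embryonic fibroblasts with a β-actin knockout that express β-actin tagged with a nuclear localization signal (NLS). No treatment or time is given in the labels, and they do not say whether the 3 libraries came from separate cultures, so the spread between them may be technical. With a single condition there was nothing to compare the cells with. The deposited values are raw counts per Ensembl gene, not normalized, with 44383636 to 49932446 counts per library. The knocked-out gene was checked first. Actb had 53814, 54883 and 47505 counts in replicates 1, 2 and 3. RNA of the NLS-tagged β-actin and any residual RNA of the knocked-out locus cannot be told apart in these counts. Of 10 fibroblast markers, 10 had more than 3 counts in every library, with summed levels of 12156 to 13154 CPM, the count relative to the scaled library size, although Dcn averaged 0.152 CPM and Thy1 0.836 CPM. Of the smooth muscle markers, 3 of 4 were above that floor with summed levels of 359 to 383 CPM. None of 3 epithelial and none of 3 blood markers were, and 1 of 2 endothelial and 3 of 3 neuronal markers were, at summed levels of at most 3.09 CPM.

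The closest copies differ from Actg1 by few bases. Positions below are counted from 1 at the A of the Actg1 start codon, and genome coordinates are those of GRCm38. Gm12715, on the plus strand of chromosome 4 from 103563402 to 103564529, aligned to all 1128 coding bases of Actg1 with 0 gaps and 4 substitutions, an identity of 99.65%. The substitutions were T858C, G861T, T864C and G1002A. All 4 fall on the last base of a codon and change 0 residues, so the copy still reads as 375 codons without an internal stop. In 3 of the 4 the copy holds the base that Actb has at the same position. The stretch with the first 3 is shown because it is one of the places where a short read can be told apart between Actg1 (the fifth exon, chr11:120346735-120346785, minus strand) and Gm12715 (chr4:103564237-103564287, plus strand). It is given with Actb (chr5:142904165-142904215, minus strand). Capitals mark the positions where Gm12715 and Actg1 differ and, in Actb, every base that differs from Actg1.
Actg1 836 to 886: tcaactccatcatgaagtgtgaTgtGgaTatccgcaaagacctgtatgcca
Gm12715: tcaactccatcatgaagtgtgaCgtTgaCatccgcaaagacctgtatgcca
Actb: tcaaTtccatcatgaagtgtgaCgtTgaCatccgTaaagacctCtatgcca

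The remaining difference of Gm12715 lies in a stretch that crosses an exon junction of Actg1 and is unbroken in the copy (chr4:103564378-103564428). Capitals mark the differing base.
Actg1 977 to 1027: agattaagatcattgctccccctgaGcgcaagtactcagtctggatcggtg
Gm12715: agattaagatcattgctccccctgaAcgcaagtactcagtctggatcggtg
Among the other copies, Gm8399 carried none of its 8 substitutions with the Actb base, Actg-ps1 carried 2 of 21, Gm16385 2 of 25 and Gm6375 1 of 38. The 3 Actb bases of Gm12715 lay within 7 bases of each other. At its remaining difference, G1002A, Actb has the same base as Actg1.

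Gm8399, on the plus strand of chromosome 13 from 81064684 to 81065800, aligned to Actg1 with 8 substitutions and 1 gap of 8 bases, and its reading frame stopped after 111 codons. It lies in an intron of the noncoding gene 9330111N05Rik on the same strand, which had 0, 2 and 2 counts. Actg-ps1, on the plus strand of chromosome 8 from 46228994 to 46230117, had 21 substitutions and an identity of 98.12%. Gm16385, on the minus strand of chromosome 16 from 64917983 to 64919084, had 25 substitutions and 97.73%. Gm6375, on the minus strand of chromosome 6 from 133761445 to 133763062, had 38 substitutions and 96.57%. Identities leave gaps out. Gaps numbered 2 with 8 bases in all in Actg-ps1, 1 with 1 base in Gm16385 and 5 with 44 bases in Gm6375. The remaining pseudogenes were closer to Actb. Gm15725, on the plus strand of chromosome 16 from 37882542 to 37883631, had 42 substitutions and an identity of 96.11% to Actb. Gm4750, on the plus strand of chromosome X from 152432477 to 152434676, had 84 and 92.41%. Against Actb, Gm15725 had 9 gaps with 50 bases in all and Gm4750 had 12 with 58.

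The 100-base stretch of Actg1 held by most members spans coding positions 616 to 715 in the fourth exon (chr11:120346998-120347097, minus strand). It is identical in Gm12715, Gm8399, Actg-ps1 and Gm6375, so a read of that length from it cannot be assigned to 1 of the 5 genes by its sequence. Gm16385 (chr16:64918392-64918491) differs there at 4 bases and Gm4750 (chrX:152433376-152433475) at 15, marked in capitals.
Actg1 and 4 copies: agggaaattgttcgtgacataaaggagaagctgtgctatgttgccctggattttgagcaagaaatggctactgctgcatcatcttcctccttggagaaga
Gm16385: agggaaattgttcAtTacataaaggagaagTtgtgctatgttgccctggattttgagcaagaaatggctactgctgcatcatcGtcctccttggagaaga
Gm4750: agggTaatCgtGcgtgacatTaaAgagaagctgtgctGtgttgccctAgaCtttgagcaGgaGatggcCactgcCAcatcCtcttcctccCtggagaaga

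To measure sharing along the whole transcript, every window of 100 bases of the 1952-base Actg1 mRNA was searched in the transcripts of all other annotated genes. Genes overlapping Actg1 were left out. Of 1853 windows, 946 occurred in at least 1 other gene, a share of 51.1%. Gm12715 held 823 of them, Gm8399 327, Gm16385 93, Actg-ps1 89 and Gm6375 25. The longest identical run, of 857 bases, was shared with Gm12715 and began at the start codon. As annotated, the 5 copies of Actg1 hold no window from beyond its coding sequence, and genome sequence around them was not searched. Of the Actg1 windows that cross an exon junction, 71.1% also occurred unbroken in another gene. Seen from the copies, 206 of 1029 windows of Gm12715 were found in no other gene, against 600 of 1018 for Gm8399, 764 of 1025 for Actg-ps1 and 967 of 1046 for Gm6375. The 1142-base pseudogene transcript of Gm4750 had 0 such windows, because all of its 1043 windows also occur in the X-linked pseudogene Gm8464. Over both annotated transcripts of Gm4750, 2001 of 2101 windows were shared. Over all annotated transcripts of Actg1, 946 of 3163 windows were shared, or 29.9%.

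**Figure D1:**
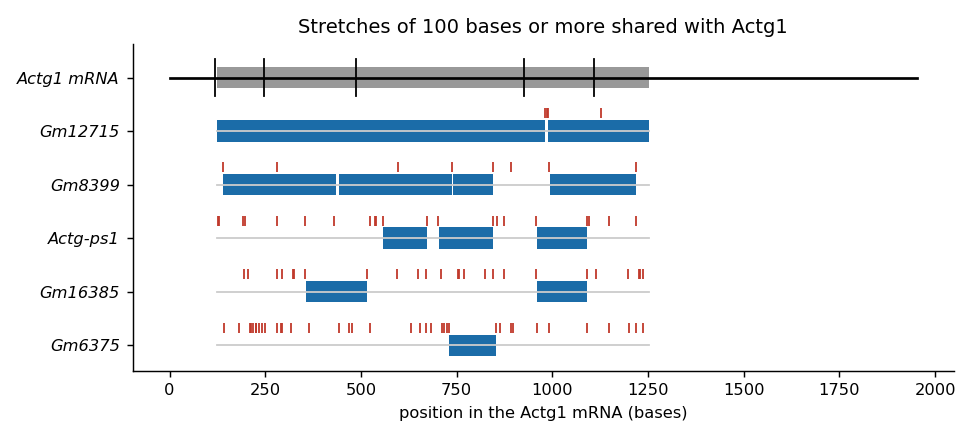
Map of the Actg1 mRNA (horizontal axis, position in bases) with the coding sequence in grey and exon junctions as vertical lines, above 5 pseudogenes whose identical runs of at least 100 bases are drawn as blue bars and whose substitutions are red ticks. Gm12715 is identical over a run of 857 bases and carries 4 ticks, while Gm6375 has 38 ticks and a single bar of 124 bases. Gaps are not drawn.

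The pseudogenes did hold reads, at levels far below those of Actg1. Actg1 (chromosome 11, 120345690 to 120348542, minus strand) had 258802, 246544 and 210368 counts in replicates 1, 2 and 3. After scaling this was 4966 ± 241 CPM (SD, n = 3). Gm12715 had 2232, 2599 and 2797 counts in the same order, or 53.4 ± 8.96 CPM (SD, n = 3). Actg1 was lowest and Gm12715 highest in the same library, replicate 3. Gm8399 had 480, 440 and 367 counts, or 8.92 ± 0.702 CPM (SD, n = 3). Actg-ps1 had 64, 50 and 45 counts, or 1.10 ± 0.157 CPM (SD, n = 3). Gm6375 had 60, 57 and 37 counts, or 1.06 ± 0.204 CPM (SD, n = 3). These 4 copies have 1117 to 1145 exonic bases each. The CPM of Actg-ps1 and Gm6375 overlapped between libraries, and those of Gm12715, Gm8399 and this pair did not.

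Both copies closer to Actb were at or near 0. Gm15725 had 0 counts in each library, which allows up to 3 counts, or 0.0601, 0.0609 and 0.0671 CPM in replicates 1 to 3. This limit covers counting error only. Gm4750 had 0, 3 and 0 counts, which is at that limit. Gm8464, which shares every 100-base window of the shorter Gm4750 transcript, had 0 counts in each library.

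Of the 6 member pseudogenes with counts, 4 had more than 3 counts in every library. Over all 6525 annotated processed pseudogenes in the tables this share was 15.0%. The members had been picked with their counts known, so nothing was read from the difference. Ordered by mean CPM per kilobase of exon among those 6525, Gm12715 ranked 43, Gm8399 130, Actg-ps1 443 and Gm6375 459. Gm12715 and Gm8399, the copies with the highest identity to Actg1 and the most Actg1 windows, had the highest levels, and Actg-ps1 and Gm6375 could not be ordered. This is a description over 4 copies of 1 sequence.

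**Figure D2:**
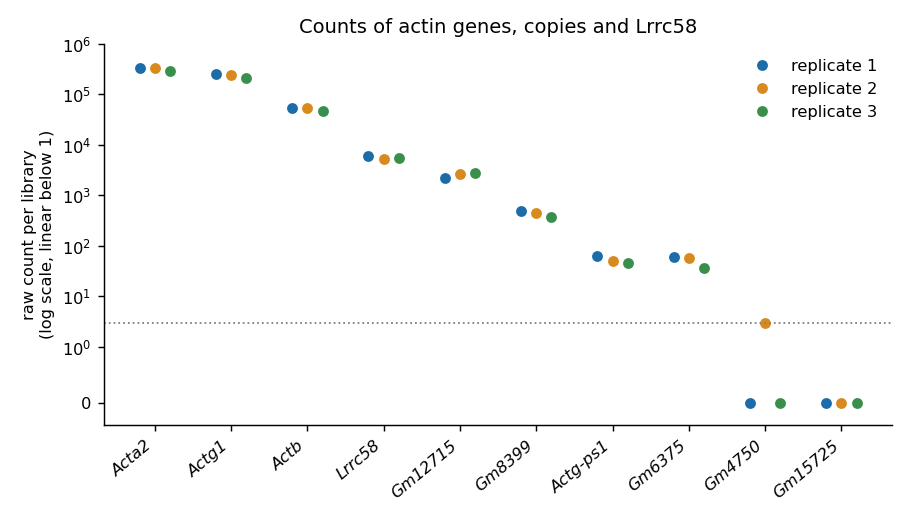
Raw counts per library (vertical axis, log scale that is linear below 1) for Acta2, Actg1, Actb, Lrrc58 and 6 pseudogenes, with 1 point per replicate and the floor of 3 counts as a dotted line. Gm12715 sits between 2232 and 2797 counts, and Gm15725 lies at 0 in all 3 libraries.

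Per kilobase of exon, Actg1 had 1868 CPM, Gm12715 47.3, Lrrc58 13.7, Gm8399 7.99, Actg-ps1 0.980 and Gm6375 0.928. On this scale the Gm12715 libraries all stood above those of Lrrc58, although Lrrc58 had more counts. Of the 100-base windows of Gm12715, 80% also occur in Actg1, and whether its reads came from Actg1 was not tested. Gm12715 lies far from other genes with reads. The nearest genes above the floor were Oma1, 191534 bases away with 375, 468 and 375 counts, and Fyb2, 1348927 bases away with 70, 47 and 52.

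Relative to Actg1 in the same library, Gm12715 held 0.862% of the Actg1 count in replicate 1, 1.05% in replicate 2 and 1.33% in replicate 3. The highest was 1.54 times the lowest. Gm8399 held 0.185%, 0.178% and 0.174%, where the highest was 1.06 times the lowest. The share of Gm12715 was highest in replicate 3, where that of Gm8399 was lowest, and the difference in spread between the 2 copies was not tested. Actg-ps1 held 0.0247%, 0.0203% and 0.0214%, and Gm6375 0.0232%, 0.0231% and 0.0176%. All 6 pseudogenes together came to 1.31 ± 0.225% of Actg1 (SD, n = 3), and without Gm12715 to 0.223 ± 0.00998% (SD, n = 3).

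Windows found in no other gene give a second scale, under the assumption that reads were counted only there. Gm12715 then had 10.8, 12.6 and 13.6 counts per unique window, and Actg1 285, 272 and 232. Expressed against Actg1, this was 3.80%, 4.64% and 5.85% for Gm12715. It was 0.280%, 0.270% and 0.264% for Gm8399, and under 0.03% for Actg-ps1 and Gm6375 in every library. The Actg1 windows were the 907 of 1 mRNA, and over all its annotated transcripts there were 2217.

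Variation between libraries was set against counting error with a chi-square test over the 13814 genes whose 3 libraries each had 10 or more counts. Of these, 43.9% varied beyond counting error at a Benjamini-Hochberg adjusted p under 0.05. Replicate 2 stood apart over the whole table, since the share was 12.5% of 14037 genes without it, against 33.1% without replicate 1 and 34.0% without replicate 3. Among the 6 members tested, 3 passed, against that background. These were Actg1 (chi-square adjusted p = 1.84e-234), Gm12715 (1.07e-29) and Lrrc58 (7.01e-11). Gm8399 did not pass (chi-square adjusted p = 0.134), nor did Actg-ps1 (0.44) or Gm6375 (0.252). The test follows depth, since the highest Actg1 library was only 1.10 times the lowest, and for Gm12715 it was 1.40 times. Without replicate 2, when called genes fell from 6063 to 1748, Lrrc58 no longer passed (chi-square adjusted p = 0.787), and Actg1 and Gm12715 still did. Among 4605 genes within 2-fold of the mean CPM of Gm12715, the median ratio of highest to lowest library was 1.08, and 7, with Gm12715 itself, reached 1.40 or more.

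**Figure D3:**
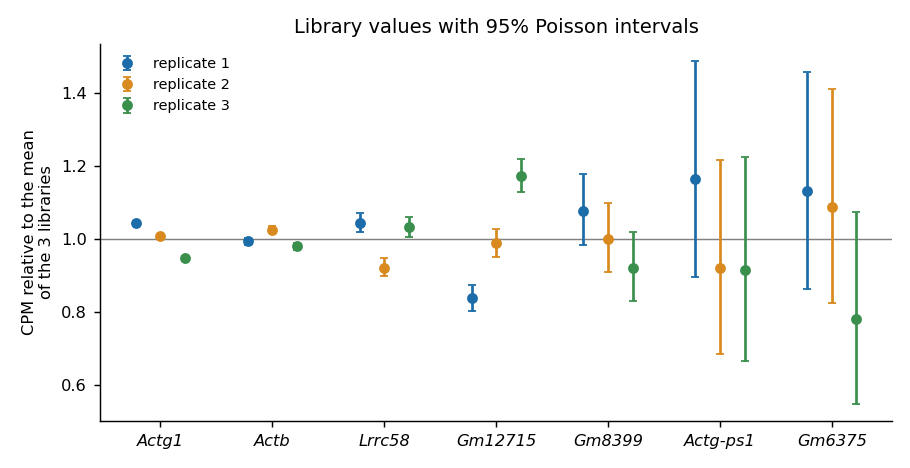
CPM of each library divided by the mean of the 3 libraries (vertical axis) for 7 genes, with exact 95% Poisson intervals of the count as bars. The Gm12715 points run from 0.838 in replicate 1 to 1.173 in replicate 3 with intervals that do not overlap, while those of Gm8399, Actg-ps1 and Gm6375 overlap.

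The counts were then compared with an equal division of reads that match several genes. For this arithmetic, the reads of Actg1 and the 6 pseudogenes were pooled in each library, taken as coming evenly from the Actg1 mRNA, and each read on a shared 100-base window was divided equally among the genes that hold it. Gm12715 would then have held 48665, 46443 and 39732 counts, or 18.6% of the pool. The deposited counts of 2232, 2599 and 2797 were 14.2 to 21.8 times lower. For Gm8399 the divided counts were 17216, 16430 and 14056, which were 35.9 to 38.3 times the deposited counts. The factor was 61.7 to 75.4 for Actg-ps1 and 15.9 to 21.0 for Gm6375. With windows of 50 bases the factor was 11.8 to 18.1 for Gm12715, 51.0 to 54.5 for Gm8399, 197 to 241 for Actg-ps1 and 87.6 to 116 for Gm6375. With windows of 150 bases it was 14.8 to 22.7 for Gm12715 and 12.6 to 13.5 for Gm8399. Actg-ps1 and Gm6375 share no 150-base window with Actg1 and would have received none of its reads, so their deposited counts lay above an equal division at that length. The deposited counts of Gm12715 and Gm8399 were below an equal division at each length tried, and those of the other two at 50, 75 and 100 bases only. The pool held only deposited counts, so any reads left out before counting were missing from it. These factors also rest on 1 Actg1 mRNA, with 51.1% of 100-base windows shared, against 29.9% over all its annotated transcripts. The read length is not given in the sources used here, and whether reads matching several genes were left out, kept at 1 place or set on Actg1 by the aligner was not tested.

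**Figure D4:**
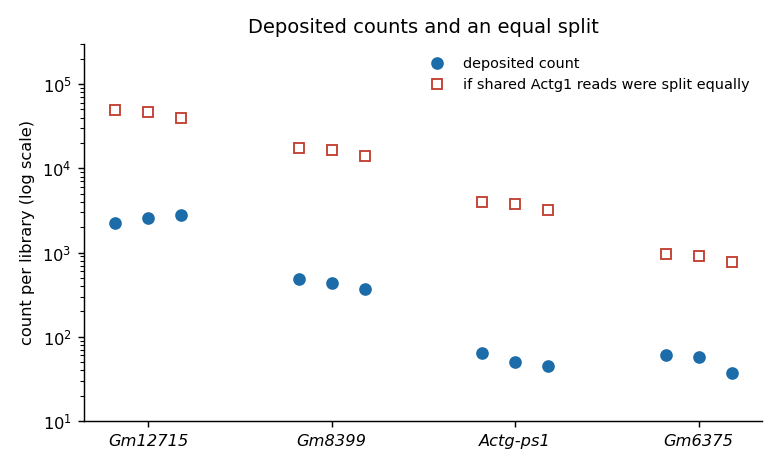
Deposited count per library (filled circles) and count under an equal division of shared Actg1 reads over 100-base windows (open squares) for 4 pseudogenes on a log axis. Each square lies above the circle of the same library, by 14.2 to 21.8 times for Gm12715 and 35.9 to 38.3 times for Gm8399.

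Genes that have no 100-base window of their own bear on the same question over the whole table. Of 1691 genes whose every 100-base window occurs in another gene and whose exons overlap no other gene, 82 had more than 3 counts in every library, or 4.85%. For 25050 genes with no shared window the share was 29.7%. The share differed by kind of gene. It was 1.98% of 253 protein-coding genes with every window shared, and 32.3% of 229 processed pseudogenes. Most of the 1691 genes were of other kinds, which were not split further. Gm7336, a processed pseudogene with every 100-base window shared, had 9961, 9285 and 8378 counts. Among genes with every 150-base window shared the highest mean count was 4104, so Gm7336 was not among those. Processed pseudogenes with no shared window were above the floor in 2.36% of 4107 cases. Those with at least 50% but not all windows shared, as Gm4750 has, were above it in 46.4% of 524. Gm12715 has such a share but was not among the 524, because its exon overlaps a microRNA gene. The cause of the differences between these shares was not tested.

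**Figure D5:**
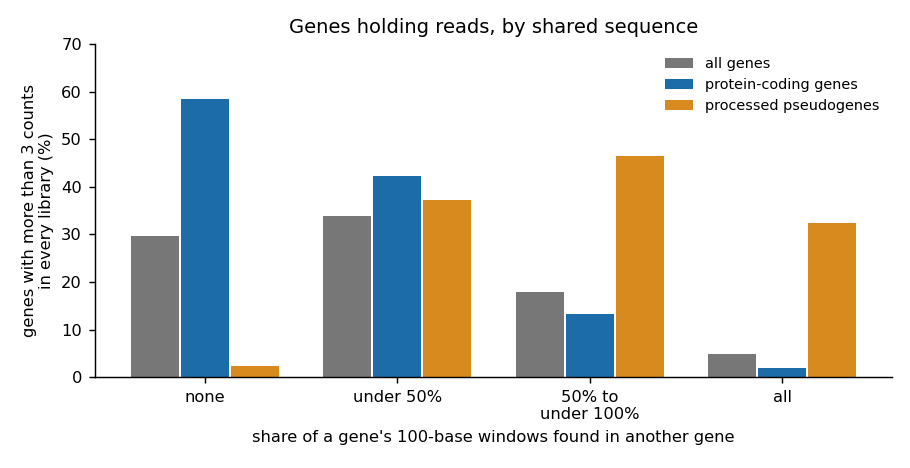
Percentage of genes with more than 3 counts in every library (vertical axis) by the share of their 100-base windows found in another gene (horizontal axis), for all genes, protein-coding genes and processed pseudogenes without overlapping exons. Processed pseudogenes go from 2.36% with no shared window to 32.3% with every window shared, and protein-coding genes from 58.4% to 1.98%.

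Gm15725 differs from the other copies in its position. All of its 1090 bases lie within the last exon of Lrrc58 on the same strand, 1083 bases past the end of the Lrrc58 coding sequence. Lrrc58 (chromosome 16, 37868389 to 37888858, plus strand) had 6141, 5357 and 5443 counts, or 118 ± 7.95 CPM (SD, n = 3), and Gm15725 had 0, 0 and 0. A read inside Gm15725 fits the exons of both genes, and how such reads were assigned is not given in the sources used here. Among processed pseudogenes that lie wholly within exons of another gene on the same strand, 24 had counts to analyse, of which 20, or 83.3%, were at 0 in all 3 libraries and 2 were above the floor. Over all 6525 processed pseudogenes, 60.2% were at 0 in all 3 libraries. The Actb copy in Lrrc58 shares a run of 119 bases with the Actb mRNA, of which 30 are shown (Actb chr5:142904071-142904100, minus strand, and Lrrc58 chr16:37883459-37883488).
Actb and Lrrc58: tactgctctggctcctagcaccatgaagat
Only 20 of 1821 windows of the Actb mRNA occurred in another gene, a share of 1.10%, and for Lrrc58, with Gm15725 left out, it was 0.235%. The Actb share was 14.2% with windows of 50 bases, 2.60% with 75 and 0% with 150.

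The ratio of Actg1 to Actb depends on the scale used. Per kilobase of exon, it was 4.85, 4.53 and 4.46 in replicates 1, 2 and 3, on average 4.61 ± 0.206 (SD, n = 3). Per window found in no other gene it was 9.09 ± 0.405 (SD, n = 3). That scale sets counts of the whole gene against windows of 1 mRNA each, 907 for Actg1 and 1801 for Actb. Over all its annotated transcripts Actg1 had 2217 such windows. Whether RNA of the NLS-tagged β-actin carries the whole Actb mRNA is not given in the sources used here. Actg1 stood above Actb in 3 of 3 libraries on both scales. Of the other actin genes, Acta2 (smooth muscle α-actin) had 330227, 329767 and 290879 counts and shared 0% of its 100-base windows. Actg2 (smooth muscle γ-actin) had 4941, 4767 and 4285, Acta1 (skeletal α-actin) 121, 102 and 122, and Actc1 (cardiac α-actin) 0, 0 and 1. The Actg1 and Actb proteins differ at 4 of 375 residues, while their coding sequences differ at 128 bases, which is far more than the 4 between Actg1 and Gm12715.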

How the data were processed

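RNA-Seq of polyadenylated RNA from 3 KO-NLS-actin libraries was used. The authors deposited raw counts per Ensembl gene, without normalization. The submitters' processing notes name Trimmomatic, FastQC, HISAT2, HTSeq, mm10 and GRCm38 without versions. Read length, strandedness and the settings for reads that match several places or overlapping genes are not given in the sources used here. The counts of near-identical copies can depend on these. Symbols, coordinates and transcripts came from GENCODE release M21, which matched 46005 of 46603 genes. The 598 others held 0.0768% of the counts.

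TMM scaling used edgeR 4.0.16 (R 4.3.3). DESeq2 1.42.0 size factors and library totals were alternatives. Windows of 50, 75, 100 and 150 bases were searched in the transcripts of all annotated genes. For shares of a single transcript, genes overlapping the searched member were left out. They were kept for shares over all transcripts of a gene and over the whole table. Copies were aligned to actin coding sequences with Biopython 1.88. A chi-square test compared each gene's 3 counts with library sizes, for genes whose 3 counts were all 10 or more, with Benjamini-Hochberg adjustment over all genes and a threshold of 0.05. It was tested on simulated data. A floor of 3 counts marks what a count of 0 allows. Other values used Python 3.11.15, numpy 2.4.6, pandas 2.3.3, scipy 1.17.1 and matplotlib 3.10.9.

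Members and lists were chosen with earlier results of these data known. Genes were named if they were members, actin genes, marker genes, genes that overlap or flank a member, genes sharing a window with Actg1 or Actb (by mean count), or the 3 genes nearest to Actg1 in pattern among those within 2-fold of its mean CPM. Gm7336, Gm8464, 9330111N05Rik, Oma1 and Fyb2 were named after their values were seen. Groups were taken from the labels. Peak lists and libraries of other cells were not used here.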

Additional observations from a re-analysis of the deposited data

How the results depend on the processing

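The share of windows of the Actg1 mRNA found elsewhere was 51.1% at 100 bases, 55.9% at 50, 53.9% at 75 and 43.5% at 150. Over all annotated transcripts of Actg1 it was 29.9% at 100 bases. The search of a whole genome sequence was not run. The Actg1 to Actb ratio was 4.61 per kilobase of exon and 4.58 from plain counts. Per window found in no other gene, from 1 mRNA of each, it was 9.09. Leaving out each replicate gave 4.50 to 4.69 per kilobase of exon. The member pseudogenes above the floor numbered 4 under every floor and without each replicate. Their counts came to 1.31% of Actg1, and to 1.19% to 1.41% without 1 replicate each. Other scalings moved member CPM by at most 0.621%. Members varying beyond counting error numbered 3 under each scaling and filter, and 2 to 3 without 1 replicate each, Lrrc58 being lost without replicate 2. The share of all genes called was 43.9%, and 25.9% with at least 1 count in any library, and 12.5% to 34.0% without 1 replicate each. Fully shared genes above the floor made up 4.85%, and 4.20% to 5.93% under other windows and a floor of 10. No paired analysis was possible because the libraries form 1 group. A count cannot show which of several identical copies a read came from, and counts under 100 for Actg-ps1 and Gm6375 leave Poisson intervals too wide to tell the libraries apart.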

Other observations

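Besides the members, 7 processed pseudogenes share a 50-base window with the Actg1 or Actb mRNA, and counts were analysed for 4 of them. Gm5388, on chromosome X, had 14, 12 and 4 counts and Gm17228, on chromosome 17, had 4, 8 and 12, so these 2 were above 3 counts in every library. Gm12003 had 3, 2 and 0 counts, and Gm8464 had 0 in each. Gm17228 was lowest and Gm5388 highest in replicate 1. At 100 bases, Gm8543 was the remaining pseudogene that shares windows with Actg1, and its counts were not analysed here.

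Each of the 5 Actg1 copies, and Actg1 itself, has a microRNA gene annotated inside its exons. The one inside Gm16385, Gm23374, had 7, 8 and 4 counts. Those inside Gm12715, Gm8399, Actg-ps1 and Gm6375 (Gm22801, Gm25241, Gm23812 and Gm23375) had 0 counts in each library, and Gm23419, inside Actg1, had 1, 0 and 1. Mir6935, also inside Actg1, had 0 counts in each library. Gm23374 thus stood above 3 counts in every library. Its host Gm16385, unlike the other hosts, is not among the genes counted, and the origin of those reads was not tested.

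Among 11 other genes within 2-fold of the mean CPM of Actg1, the 3 whose library values moved most like it were Flna, which encodes the actin crosslinker filamin A, Vim (vimentin) and Eef2 (an elongation factor). Their distances over the 3 libraries were 0.056, 0.066 and 0.076 on the log2 CPM scale, where 0 would be the same pattern and a gene with 1 level in all libraries would be at 0.100. Flna had 4428, 4260 and 4209 CPM and, as Actg1, was highest in replicate 1. Vim had 4630, 4760 and 4298 and Eef2 5041, 5217 and 4850, and both were highest in replicate 2. All 3, as Actg1, were lowest in replicate 3.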
